A study of Mus musculus with 5 samples.

Results

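The genes of cell polarity and asymmetric division were examined in hematopoietic stem cells (HSCs) that had or had lost Syncrip, which encodes an RNA-binding protein. The set held 9 genes, chosen by name among the 24046 gene symbols of the deposited table: Numb, Numbl, Pard3, Pard6g, Prkci, Prkcz, Llgl1, Scrib and Dlg1. Bulk RNA sequencing was carried out on 5 libraries of sorted bone marrow HSCs. Every donor carried Syncrip flox/flox, either without the Mx1 Cre transgene (Cre-, here WT, n = 3: WT 1, WT 2 and WT 3) or with it (Cre+, here KO, n = 2: KO 2 and KO 3, as the labels number them). Whole marrow was moved into congenic CD45.1 hosts, which the study's methods describe as lethally irradiated young adult females, the donors being of like age. Both groups received pIpC, an interferon inducer that switches on the Mx1 promoter, and marrow was taken 3 weeks after that, 9 weeks into engraftment. The sort took cells that were CD45.2+ (of donor origin), Lin-, Sca1+, cKit+, CD150+ and CD48-. The Mx1 promoter responds to interferon in many cell types, so deletion within the donor-derived cells is not limited to HSCs. The labels themselves state no age and do not say whether the libraries of a group came from separate mice, so p-values measure only the spread between libraries.

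Cell polarity rests on protein modules that exclude each other from parts of the cell cortex. The PAR complex joins the scaffold PAR3 (Pard3), the adaptor PAR6 (Pard6a, Pard6b or Pard6g) and an atypical protein kinase C (Prkci or Prkcz), which the small GTPase CDC42 switches on. The Scribble module (Scrib, Dlg1 and Llgl1) opposes it, and LGL proteins are substrates of the atypical kinase. NUMB, an endocytic adaptor that restrains Notch receptors, and its paralog NUMB-like can be passed unequally to daughter cells at division, and NUMB is a common marker of asymmetric division in HSCs.

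Promoter sequences are given for a member of each role that did not overlap between the groups: Prkci of the PAR complex and Numb of the fate determinants, which were lower, and Llgl1 of the Scribble module, which was higher. They are RefSeq windows (GRCm38.p6) of 250 bases before to 50 bases after the start of the gene, written 5′ to 3′ on the gene's strand. Capitals mark the GC box, GGGCGG on either strand. Prkci lies at chr3:30995521-30995820 (plus strand), Numb at chr12:83921885-83922184 (minus strand) and Llgl1 at chr11:60699450-60699749 (plus strand).
Prkci: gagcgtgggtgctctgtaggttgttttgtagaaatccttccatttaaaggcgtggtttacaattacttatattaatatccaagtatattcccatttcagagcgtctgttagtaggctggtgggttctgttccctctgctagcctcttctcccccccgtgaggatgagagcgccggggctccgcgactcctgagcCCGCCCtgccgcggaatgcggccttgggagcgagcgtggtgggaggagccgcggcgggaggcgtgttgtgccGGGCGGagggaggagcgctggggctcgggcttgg
Numb: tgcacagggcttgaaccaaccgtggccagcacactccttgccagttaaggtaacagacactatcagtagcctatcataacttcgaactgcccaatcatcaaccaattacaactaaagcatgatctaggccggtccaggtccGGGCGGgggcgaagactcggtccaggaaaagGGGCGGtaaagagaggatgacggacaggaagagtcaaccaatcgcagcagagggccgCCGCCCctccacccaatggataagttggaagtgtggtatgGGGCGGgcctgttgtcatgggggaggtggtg
Llgl1: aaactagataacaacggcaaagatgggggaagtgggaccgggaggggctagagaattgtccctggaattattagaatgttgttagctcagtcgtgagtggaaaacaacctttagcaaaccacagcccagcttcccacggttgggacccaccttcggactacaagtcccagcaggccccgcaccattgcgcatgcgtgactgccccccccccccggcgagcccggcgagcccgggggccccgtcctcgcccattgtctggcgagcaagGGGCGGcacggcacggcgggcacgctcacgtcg
The Prkci window held 2 GC boxes, the Numb window 4 and the Llgl1 window 1. Of the 9 genes 7 had a window in the table, and all 7 held at least 1 GC box, with 6 in Numbl, 3 in Prkcz, 2 in Dlg1 and 1 in Pard3 (overlapping matches counted separately). Among the windows of 27025 genes 35.9% held the motif. The 7 windows had a GC content of 56% to 78.7%, above the median of 52.7% over all windows, and were not compared with windows of like GC content. The letters TGGGAA, the core of the motif of the Notch effector RBPJ, had 1 match on either strand in the windows of Prkci and Llgl1 and 0 in that of Numb, and 25.5% of all windows held them.

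All 9 genes are protein-coding in GENCODE M21 (GRCm38), matched by symbol. Numb spans chr12:83794034-83921934 (minus strand), Numbl chr7:27258433-27282144 (plus), Pard3 chr8:127063893-127612286 (plus), Prkci chr3:30995747-31052959 (plus) and Prkcz chr4:155260129-155361361 (minus). Llgl1 spans chr11:60699723-60714186 (plus), Scrib chr15:76047158-76069784 (minus) and Dlg1 chr16:31663443-31875129 (plus), while Pard6g lies on chromosome 18 (plus). Exons of Llgl1 overlap those of Flii on the opposite strand, exons of Numb overlap Gm46367 on the opposite strand, and exons of Numbl overlap Gm44641 on the same strand. The strand setting of the counting was not given in the sources used here, so reads from the overlapping stretches could not be told apart.

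Values are normalized read counts, that is, reads per gene divided by a size factor of the library. Depth was 21748781 to 22779536 reads in WT, 18308876 in KO 2 and 12539599 in KO 3. Syncrip itself, the targeted gene, was at 1944, 1440 and 1794 in WT 1, WT 2 and WT 3, and at 294 and 343 in KO 2 and KO 3, so KO libraries kept 18.5% of the WT mean. The log2 fold change of Syncrip was -2.43 (SE of 0.22, limma adjusted p = 0.0352), and limma called no gene, Syncrip included, once any WT library was left out. With a trend on transcript GC content and length taken out, Syncrip was at -1.46 and was not called (limma adjusted p = 0.143). HSC markers were present in every library, with Kit at 8007 to 10741 and Slamf1, the gene of CD150, at 195 to 522. Cd48, whose protein the sort excluded, was also detected (191 to 768). KO libraries stood apart in other markers: adipocyte markers took 0.163% of the reads of KO 2 against 0.00121% to 0.00416% elsewhere (14 of 15 markers highest in KO 2, Ucp1 at 5622 there and at 0 in every other library), and all 8 megakaryocyte markers were highest in KO 3 (0.138% of reads against 0.0317% to 0.0558%). Myeloid markers took more reads than HSC markers in every library (5.88% to 7.02% in WT, 5.24% in KO 2 and 2.55% in KO 3, against 0.120% to 0.247% for HSC markers). Of the myeloid markers Camp, Ngp, Ltf, Ly6c2 and Csf1r were below all WT values in both KO libraries. Elane, Mpo, Prtn3, Ctsg, Ms4a3, S100a8 and S100a9 overlapped between the groups. The summed erythroid markers were lower in both KO libraries (0.321% and 0.214%) than in WT (0.344% to 0.438%), a sum that rests mainly on Car1 and Car2, while Klf1 and Epor were above all WT values in both KO libraries and the list's median log2 fold change was 0.31. The summed endothelial markers were higher (0.0300% and 0.0601% against 0.0148% to 0.0243%), a sum that rests mainly on Vwf and Egfl7, while Pecam1, Kdr, Flt1 and Emcn overlapped between the groups. The part of these markers in the values of the polarity genes was not tested. In bulk samples fewer cells of a type and less RNA per cell cannot be told apart.

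To see which polarity genes these HSCs used, WT levels were compared per kilobase of transcript. Llgl1 stood highest at 404 ± 54.7 normalized counts per kb (SD, n = 3), followed by Numb (357 ± 81.3) and Scrib (226 ± 36.1). The next level was held by Prkci (161 ± 17.5) and Dlg1 (148 ± 16.2), then Pard6g (56.4 ± 15.8) and Numbl (33.8 ± 19.0). Prkcz (1.73 ± 1.26) and Pard3 (1.67 ± 1.72) were close to 0. The WT ranges of Llgl1 and Numb overlapped, as did those of Prkci and Dlg1, of Pard6g and Numbl, and of Prkcz and Pard3. Every WT value of Numb (291 to 448) exceeded every value of Scrib (187 to 259), which in turn exceeded every value of Prkci (143 to 178). Dlg1 exceeded Pard6g, and Numbl exceeded Prkcz, in the same way. Among the tested genes the KO means per kb ran from Llgl1 (558) over Scrib (370), Numb (240), Dlg1 (121), Pard6g (113) and Numbl (89.2) to Prkci (85.3), so Prkci went from the fourth to the seventh place. The KO values of Pard6g and of Numbl spanned those of Dlg1 and Prkci, so the last places were not told apart.

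The 2 genes at the bottom of this order were at the limit of detection and did not pass the filter on low values. Pard3, the scaffold of the PAR complex, had 11, 23 and 0 reads in WT 1, WT 2 and WT 3, and 0 and 1 in KO 2 and KO 3. Prkcz, the gene of the zeta isoform of the kinase, had 9, 2 and 14 reads in WT and 5 and 4 in KO. A count of 0 allows up to 3 reads, which is 2.57 normalized counts in WT 3 and 3.08 in KO 2, and this floor covers counting error only. Without the filter limma gave log2 fold changes of -1.91 for Pard3 (SE 1.30, adjusted p = 0.421) and -0.03 for Prkcz (SE 0.91, adjusted p = 0.987), so a difference was not detectable for either gene at this depth.

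**Figure D1:**
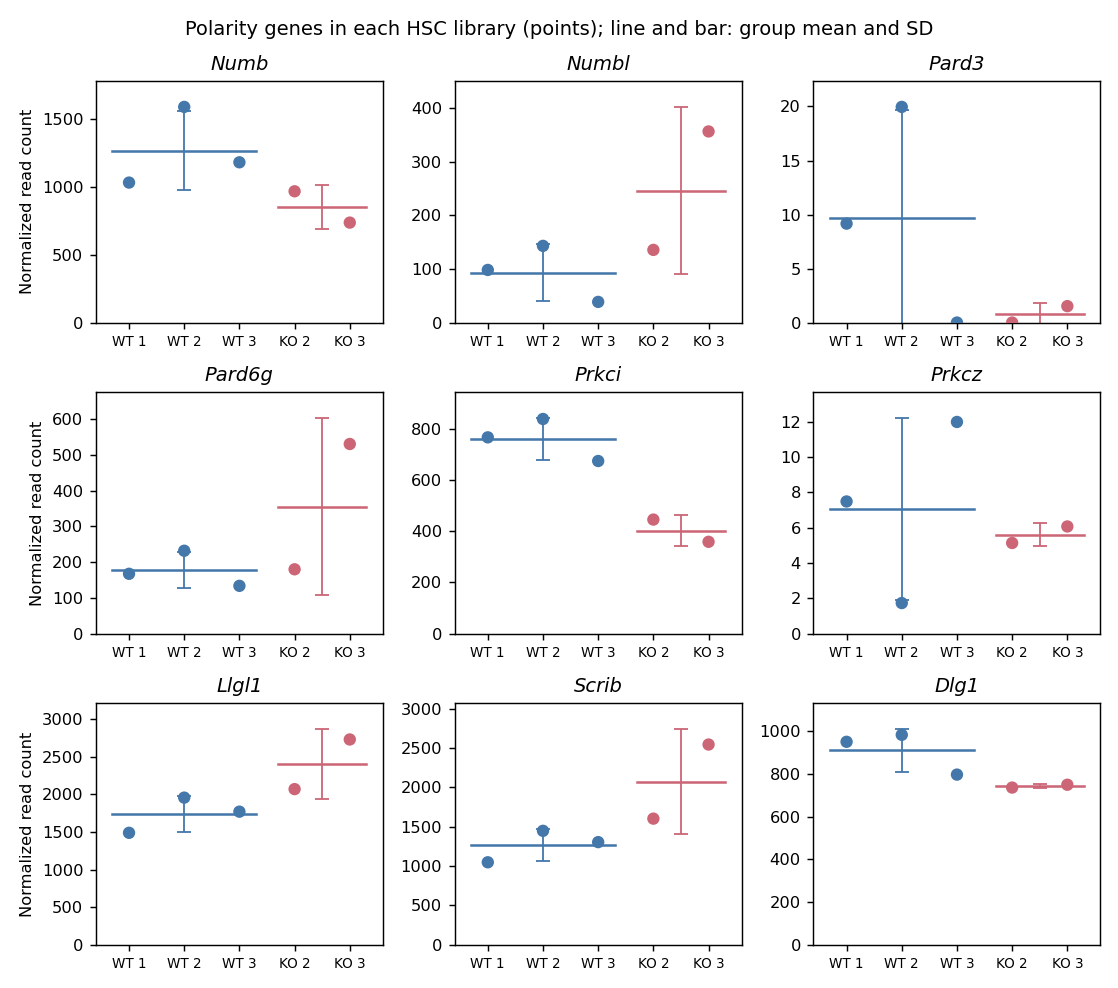
Normalized read count (vertical axes, from 0, each gene on its own scale) of the 9 polarity genes in the 3 WT (blue) and 2 KO (red) libraries. Points are libraries, and lines and bars are group means and SDs, with bars that reach below 0 cut at the axis. Prkci, Numb and Dlg1 were lower in both KO libraries than in any WT library, Llgl1 and Scrib higher, and the KO 3 points of Numbl and Pard6g stood far above those of KO 2.

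Of the 7 polarity genes tested, the log2 fold change was below 0 for 3 and above 0 for 4, where 48.9% of all 13661 tested genes lay below 0. None was called by limma at an adjusted p under 0.05 (background 0.00732%, 1 gene in all) or by edgeR (background 0.0146%, 2 genes). At an unadjusted limma p under 0.05 there were 2, Prkci and Scrib, against a background of 27.8%. DESeq2 on the recovered reads, the tool of the study, called only Prkci, which was lower, while 9.46% of the genes with an adjusted p were called lower and 9.27% higher. Both KO values lay below all WT values for 3 of the 7 (Numb, Prkci and Dlg1, background 23.2%) and above them for 2 (Llgl1 and Scrib, background 23.9%). The median log2 fold change of the 7 was 0.46, against 0.02 over all genes tested.

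Numb and Numbl lay on opposite sides of WT on average, although neither passed the test. Numb, the Notch antagonist, was at 1031, 1589 and 1181 in WT 1, WT 2 and WT 3 (mean 1267 ± 289, SD, n = 3) and at 967 and 737 in KO 2 and KO 3 (852 ± 163, n = 2). Both KO values were below the lowest WT value, and the KO mean was 67.2% of the WT mean. The log2 fold change was -0.56 (SE 0.25, 95% interval -1.12 to 0.0011, limma adjusted p = 0.180), and DESeq2 gave an adjusted p of 0.131. Numbl, which shares the phosphotyrosine-binding fold of Numb, had 98.2, 143 and 38.6 in WT and 136 and 357 in KO. KO 2 was within the WT range and KO 3 lay far above it. For Numbl the log2 fold change was 1.42 (SE 0.63, 95% interval -0.02 to 2.85, limma adjusted p = 0.183).

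The share that Numb took of the summed Numb and Numbl level, per length, was 89.1%, 89.6% and 96.0% in WT and 84.7% and 61.6% in KO. Both KO shares were lower than every WT share, with means of 73.2% ± 16.3 (SD, n = 2) against 91.6% ± 3.83 (n = 3). The difference of -18.4 percentage points had a two-sided exact permutation p of 0.1, the smallest that 3 against 2 libraries can give, and 0.25 after Benjamini-Hochberg adjustment over 5 families. Without KO 3 it was -6.84 points and without KO 2 -29.9, so its size depended on the library. The share was taken per length but was not adjusted for a trend on transcript GC content and length. With that trend taken out, the log2 fold changes of Numb and Numbl were -0.46 and 0.45. The coding transcripts of Numb and Numbl shared no stretch of 50 bases.

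Prkci, the gene of the iota isoform of the atypical kinase, had the lowest limma p of the 7 tested members. It had 766, 838 and 674 normalized reads in WT 1, WT 2 and WT 3 (759 ± 82.2, SD, n = 3) and 445 and 358 in KO 2 and KO 3 (402 ± 61.3, n = 2). The groups did not overlap, and KO libraries kept 52.9% of the WT mean. The log2 fold change was -0.92 (SE 0.23, 95% interval -1.45 to -0.39, limma unadjusted p = 0.00367). Adjusted over all genes, p was 0.0818 with limma, 0.0926 with edgeR and 0.00632 with DESeq2, so Prkci fell by DESeq2 alone, short of 2-fold. That DESeq2 call was lost without WT 1 (adjusted p = 0.0680), WT 2 (0.0864), WT 3 (0.0763) or KO 3 (0.157) and was kept without KO 2 (0.00433), a choice of alternatives made after seeing the data. With Prkcz near its floor, Prkci made up 98.0% to 99.8% of the kinase pair in WT and 98.7% and 98.1% in KO, a share so close to its upper limit that it could not show a change in Prkci.

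Cdc42, the GTPase that activates the PAR complex, is no member of the set but the partner of PAR6 and Prkci. It stood at 13414, 10825 and 13164 in WT and at 7865 and 5042 in KO, with no overlap (log2 fold change -0.98, SE 0.22, limma adjusted p = 0.0815, DESeq2 adjusted p = 0.00332). With a trend on transcript GC content and length taken out, the log2 fold change of Cdc42 was -0.39 (limma adjusted p = 0.253). Pard6g, the gamma form of the adaptor, gave 167, 232 and 134 in WT and 180 and 530 in KO. KO 2 lay among the WT libraries and KO 3 far above them, and the log2 fold change of 0.83 (SE 0.48, 95% interval -0.26 to 1.93) had a limma adjusted p of 0.284. Its difference from the WT mean, on the log2(value + 1) scale, was 0.06 in KO 2 and 1.61 in KO 3.

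The other PAR6 genes were also measured. Pard6a had 186, 258 and 181 in WT and 267 and 342 in KO, and Pard6b had 79.9, 135 and 53.1 in WT and 161 and 176 in KO. Both KO values were above all WT values for each of them, although neither was called by limma (adjusted p of 0.272 and 0.196) or DESeq2 (0.259 and 0.205). With a trend on transcript GC content and length taken out, their limma log2 fold changes went from 0.56 and 1.01 to 0.05 and 0.74. The share given next was not adjusted for that trend. The Pard6g share of the 3 genes, per length, was 23.9%, 23.3% and 21.2% in WT and 18.2% and 34.5% in KO, so the KO libraries lay on opposite sides of WT (difference 3.51 points, exact permutation p = 0.7, adjusted 0.7, and -4.64 points without KO 3).

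Genes of the Scribble module differed in direction, and none passed the test. Llgl1, the cytoskeletal regulator that the atypical kinase phosphorylates, was at 1489, 1956 and 1770 in WT (1738 ± 235, SD, n = 3) and at 2069 and 2729 in KO (2399 ± 467, n = 2). Scrib, a scaffold with PDZ domains, was at 1048, 1448 and 1304 in WT (1267 ± 202) and at 1603 and 2544 in KO (2073 ± 666). For both genes every KO value exceeded every WT value, with KO means of 138% and 164% of WT. The log2 fold change was 0.46 for Llgl1 (SE 0.21, 95% interval -0.01 to 0.93, limma adjusted p = 0.188) and 0.69 for Scrib (SE 0.25, 0.12 to 1.25, limma adjusted p = 0.127, DESeq2 0.0554). Flii, which shares exon positions with Llgl1, had 4573 ± 567 in WT and 5538 ± 1885 in KO (log2 fold change 0.24, limma adjusted p = 0.522). Its part in the Llgl1 values was not tested.

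Dlg1, the membrane-associated guanylate kinase of the module, lay on the other side of WT. It had 952, 984 and 798 in WT (911 ± 99.5, SD, n = 3) and 737 and 750 in KO (744 ± 9.34, n = 2). The KO values lay just below the lowest WT value, and the log2 fold change was -0.29 (SE 0.20, 95% interval -0.75 to 0.18, limma adjusted p = 0.382). The directions of Llgl1, Scrib and Dlg1 all turned when a trend on transcript GC content and length was taken out (log2 fold changes of -0.15, -0.16 and 0.18).

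Shares within families were compared next. The Dlg1 share of Dlg1 to Dlg5, per length, was 57.8%, 65.3% and 59.5% in WT and 53.4% and 45.3% in KO, a difference of -11.5 points (exact permutation p = 0.1, adjusted 0.25). Dlg3, the other well expressed DLG gene, was at 455, 354 and 354 in WT and 448 and 626 in KO. The Llgl1 share of Llgl1 and Llgl2 was 90.4%, 86.7% and 91.5% in WT and 89.3% and 77.3% in KO (difference -6.25 points, exact permutation p = 0.3, adjusted 0.5). Llgl2 itself had 132, 251 and 138 in WT and 208 and 673 in KO. Without KO 3 the Llgl1 difference was -0.235 points, whereas the Dlg1 share was below every WT share in each KO library and its difference was -7.48 points without KO 3. These shares were taken per length but were not adjusted for the trend on transcript GC content and length. With that trend taken out, Dlg1 and Dlg3 had log2 fold changes of 0.18 and 0.31, against -0.29 and 0.46 before. Llgl1 and Llgl2 had -0.15 and 0.39, against 0.46 and 1.17.

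**Figure D2:**
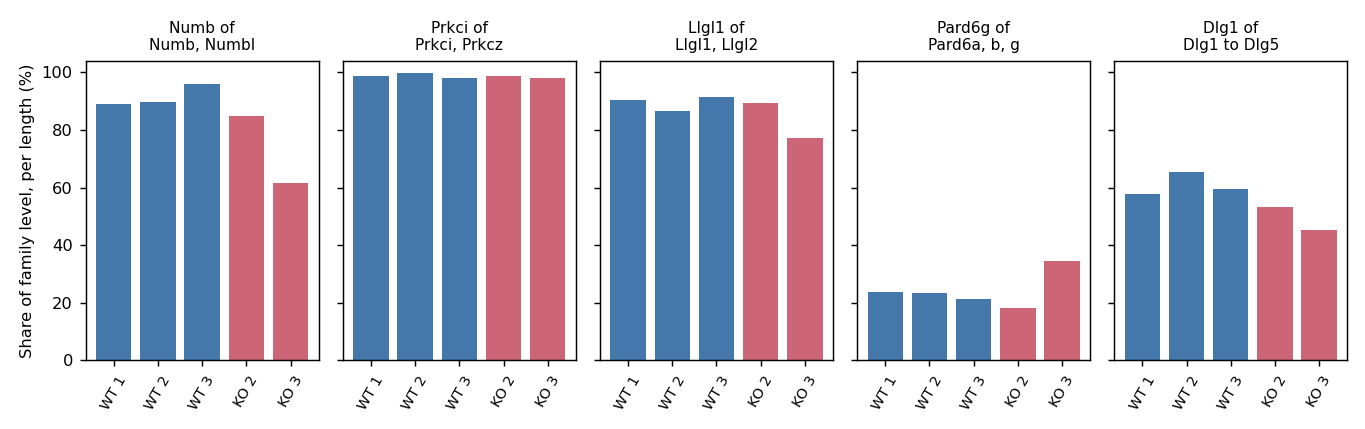
Share (%, vertical axis from 0) of the summed level of a gene family, per transcript length, taken by a named member in each of the 3 WT (blue) and 2 KO (red) libraries. The KO bars of Numb (84.7% and 61.6%) and Dlg1 (53.4% and 45.3%) are below all WT bars, the Prkci bars stay at 98.0% or more, and the Pard6g bars of the KO libraries lie on either side of WT.

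The size of the difference depended on the KO library. On the log2(value + 1) scale KO 3 lay farther from the WT mean than KO 2 for 6 of the 7 tested polarity genes, as it did for 72.5% of all tested genes. Numb differed from the WT mean by -0.37 in KO 2 and -0.76 in KO 3, Prkci by -0.76 and -1.07, Scrib by 0.35 and 1.02, and Llgl1 by 0.26 and 0.66. Dlg1 was the exception, at -0.30 and -0.27. With KO 3 alone as the KO group limma called 3 members, Prkci (adjusted p = 0.0262), Scrib (0.0270) and Pard6g (0.0329), where it called 3024 of all 13661 tested genes (background 22.1%). With KO 2 alone it called 0 members and 4 genes in all (background 0.0293%), and a lone KO library is then assumed to vary like WT. KO 3 had the fewest reads and the highest summed levels of megakaryocyte markers and of HSC markers (0.247% of reads for the latter, against 0.120% to 0.200% elsewhere, with 11 of 17 genes highest in KO 3), and the part of these in the polarity genes was not tested. The HSC list also holds Cd48 and Ptprc, which were below all WT values in both KO libraries, and Cd34 and Flt3, which overlapped.

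**Figure D3:**
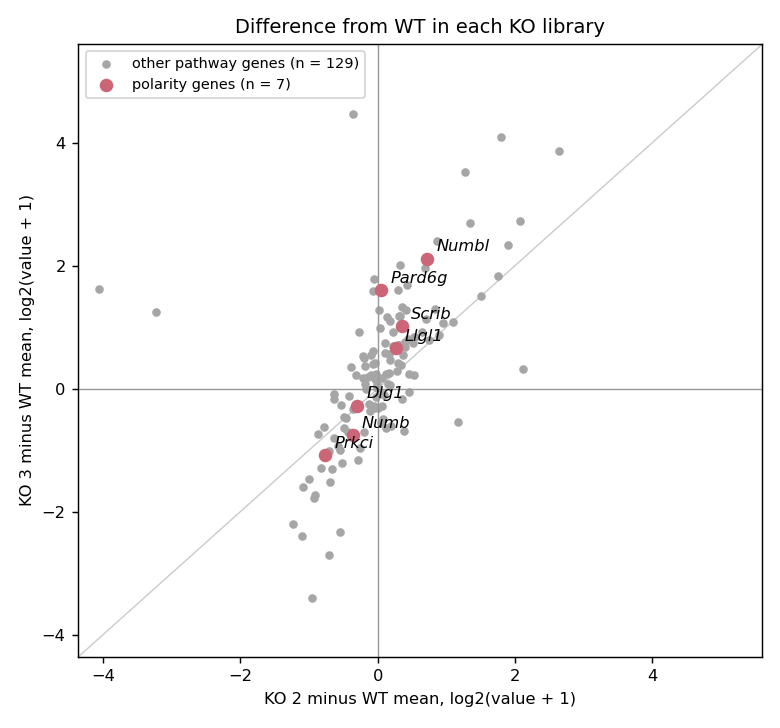
Difference from the WT mean on the log2(value + 1) scale in KO 2 (horizontal axis) and KO 3 (vertical axis) for the 7 tested polarity genes (red, named) and the 129 other tested pathway genes (grey). Both axes share the WT libraries, and the diagonal marks equal differences. Numbl (0.72 and 2.11) and Pard6g (0.06 and 1.61) stand above the diagonal, and Dlg1 (-0.30 and -0.27) lies on it.

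Differences between KO and WT followed the base composition of transcripts across all genes. Over 13538 tested genes with a matched GENCODE M21 transcript, the log2 fold change grew by 0.74 for each 10 percentage points of GC content, by 0.52 in KO 2 and by 0.97 in KO 3. Single WT libraries against the other WT libraries gave -0.16 to 0.26. The members followed much the same order. GC content was 43.8% in Dlg1, 44.5% in Prkci and 48.9% in Numb, which were below WT, and 58.3% in Llgl1, 61.2% in Scrib and 63.2% in Numbl, which were above. Pard6g, with 49.2%, was also above WT, and among the members it lay farthest above a straight-line fit over the tested genes.

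When the linear dependence on transcript length (log2) and GC content was taken out of every library, the log2 fold change was -0.50 for Prkci (SE 0.20, limma adjusted p = 0.287) and -0.46 for Numb (SE 0.22, adjusted p = 0.352). It was 0.91 for Pard6g (SE 0.48) and 0.45 for Numbl (SE 0.54). The directions of these 4 genes held, whereas Llgl1 (-0.15, SE 0.15), Scrib (-0.16, SE 0.17) and Dlg1 (0.18, SE 0.19) changed sign. The median of the 7 became -0.15, against -0.02 for all genes. Cdc42 went to -0.39 (limma adjusted p = 0.253). Syncrip, the targeted gene, went from -2.43 to -1.46 (limma adjusted p = 0.143), so the step also made the difference of the deleted gene smaller.

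**Figure D4:**
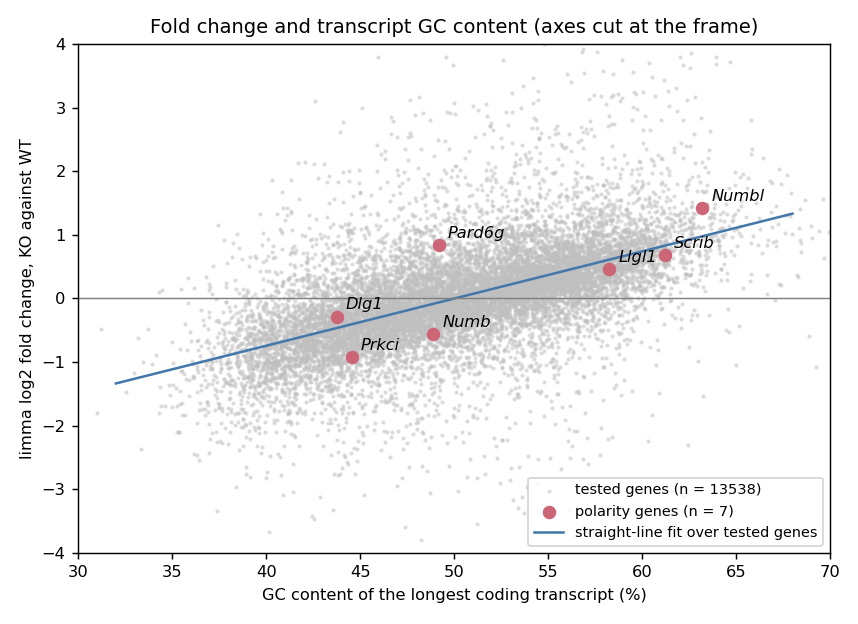
limma log2 fold change of KO against WT (vertical axis) by GC content of the longest coding transcript (horizontal axis, %) for 13538 tested genes (grey) and the 7 tested polarity genes (red). The line is a straight-line fit over the tested genes with a slope of 0.74 per 10 percentage points, points outside the frame are not drawn, and Pard6g lies farthest above the line among the members.

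**Figure D5:**
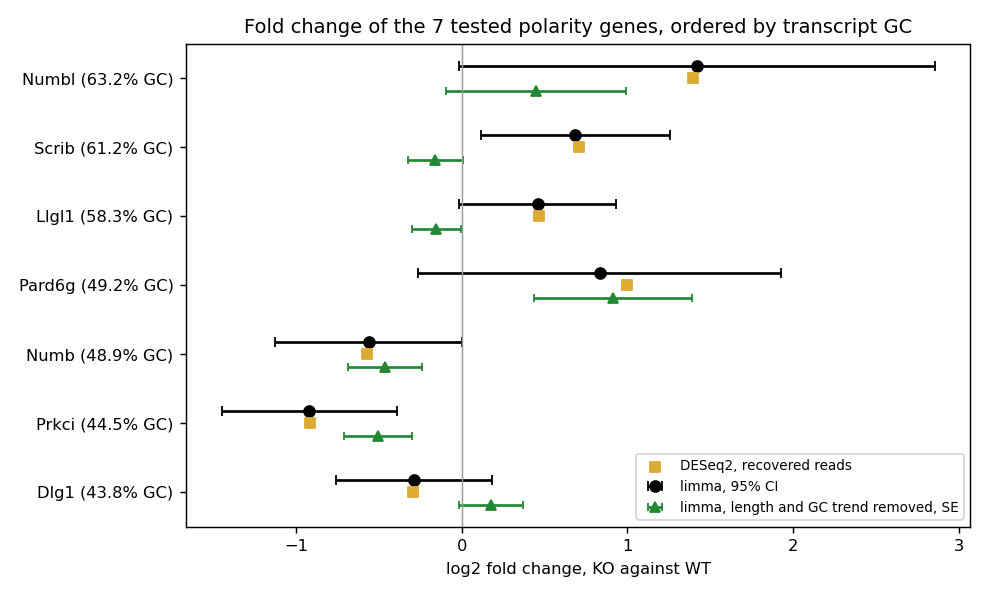
log2 fold change (horizontal axis, KO against WT) of the 7 tested polarity genes in the order of their GC content, by limma with the 95% interval (black), by DESeq2 on recovered reads (yellow) and by limma after removal of the length and GC trend with the SE (green). The intervals of Prkci (-1.45 to -0.39) and Scrib (0.12 to 1.25) exclude 0 before that removal, and the green points of Llgl1, Scrib and Dlg1 lie on the other side of 0 from the black points.

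Genes that act with the members were read from lists by role, which held 150 further genes in the table, 129 of them tested. limma called 0 of the 129, with 40 at an unadjusted p under 0.05, and edgeR also called 0. DESeq2 called 17 lower (14.2% of the 120 with an adjusted p) and 11 higher (9.17%), beside the backgrounds above. Both KO values lay below all WT values for 29 (22.5%) and above for 32 (24.8%). The DESeq2 count of 28 went to 18, 14 and 5 without WT 1, WT 2 and WT 3, to 44 without KO 2 and to 7 without KO 3. The genes named in the following as fallen or risen passed DESeq2's adjusted p with all 5 libraries, and their limma adjusted p was 0.0815 or more. Fold changes and adjusted p-values of these genes are those of DESeq2. With the length and GC trend taken out, 27 of the 28 kept their sign in limma and 1 (Lfng) did not, 18 of the 27 were over 1.5 times smaller, and 0 had an adjusted p under 0.05. Values after that step are given below as adjusted for composition, on limma's scale.

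Of the 6 further PAR complex genes Cdc42 alone was called. None of the 6 further Scribble module genes with an adjusted p was called, and Erbb2ip (also Erbin), a relative of Scrib, had a log2 fold change of -0.38. In the Crumbs complex, which marks the apical side together with the PAR complex, 2 of 3 genes with an adjusted p fell: Lin7c from 1150 ± 209 to 489 ± 114 (adjusted p = 0.000668) and Mpp5, also PALS1, from 452 ± 35.3 to 188 ± 74.5 (adjusted p = 0.00554). Their limma log2 fold changes of -1.24 and -1.32 were -0.28 and -0.53 when adjusted for composition. Of 12 genes of the LKB1 and MARK kinases, which act on PAR proteins, 2 fell: Cab39 (log2 fold change -0.72, or -0.34 adjusted for composition) and Cab39l (-0.76, or -0.26), the scaffolds of LKB1.

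Among partners of Numb 3 of 16 fell and 2 rose. Itch, a ubiquitin ligase that works with Numb on Notch, fell from 1792 ± 152 to 870 ± 193 (log2 fold change -1.04, adjusted p = 0.000602). Lnx1, a ligase that targets Numb, fell (-1.64, adjusted p = 0.0120), as did the endocytic adaptor Eps15 (-1.06). Ap2s1, a subunit of the AP-2 adaptor, rose from 2821 ± 117 to 4566 ± 699, and Trp53, whose protein binds Numb, rose by 0.46 (adjusted p = 0.0361). Adjusted for composition, Ap2s1 was at 0.03, Trp53 at 0.20, Itch at -0.46, Eps15 at -0.44 and Lnx1 at -1.78. Ap2a2, an AP-2 subunit named for its high WT level, was at -0.05.

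In the Notch pathway, which Numb restrains, 6 of 29 genes rose (20.7%, background 9.27%) and 2 fell (6.90%, background 9.46%). The median limma log2 fold change of this list was 0.21, or -0.07 with the length and GC trend removed. Jag2, a Notch ligand, was at 58.3, 75.5 and 77.1 in WT and at 245 and 1200 in KO (log2 fold change 3.36, adjusted p = 3.9e-06). Mfng, a glycosyltransferase that modifies Notch, rose by 1.36 and Dtx2, of the Deltex family, by 0.93. Hes1 and Nrarp, both Notch target genes, and Lfng, a relative of Mfng, complete the 6 and were named after their values were seen. Hes5, Hey1, Hey2 and Heyl of the same list were not among the genes called. Hes1 was at 40.8, 17.4 and 39.4 in WT and at 105 and 111 in KO (1.73, adjusted p = 0.0361). Adam10, the protease that cuts Notch at the cell surface, fell from 4344 ± 180 to 2495 ± 170, and Aph1b, of the gamma-secretase complex, fell (-1.32). Adjusted for composition, Adam10 was at -0.20, Aph1b at -0.84, Dtx2 at 0.23, Mfng at 0.75, Jag2 at 2.05 and Hes1 at 1.79. The receptor genes Notch1 (-0.13) and Notch2 (-0.03), also named after their values were seen, were not called.

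Among genes of spindle orientation 4 of 21 fell and 1 rose. Gnai3, a G protein subunit that anchors the spindle machinery at the cortex, fell from 4841 ± 332 to 1980 ± 809 (log2 fold change -1.29, adjusted p = 0.000320). Fry (-0.85), Dync1i2 (-0.74) and Tpx2 (-0.83) fell as well, while the dynactin subunit Dctn3 rose from 1297 ± 74.6 to 2209 ± 36.9. Adjusted for composition, Gnai3 was at -0.71, Dctn3 at 0.47, Dync1i2 at -0.33, Fry at -0.99 and Tpx2 at -0.69. Gnai2, the gene of this list with the highest WT level, was at 0.02.

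Planar cell polarity genes had a median limma log2 fold change of 0.65, or 0.29 with the length and GC trend removed, and 2 of 19 rose while none fell. They were Fuz, from 731 ± 37.0 to 1551 ± 344 (adjusted p = 0.000389), and the receptor gene Fzd8, from 43.0 ± 16.2 to 187 ± 116, at 0.43 and 1.89 when adjusted for composition. Among other genes used to follow fate in dividing HSCs, Prom1 (-1.41) and Tfrc (-1.21), which encode prominin 1 and the transferrin receptor, fell (-1.37 and -0.67 adjusted for composition). Lamp1, a lysosomal marker of unequal division, was at -0.17 (adjusted p = 0.555). The summed myeloid markers were also lower in both KO libraries, though Elane, Mpo, Prtn3 and Ctsg overlapped between the groups. The part of the myeloid markers in the lower values of Prom1 and Tfrc was not tested.

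For each tested member the gene of closest pattern was sought among 135 candidates, as the root mean square difference of centred log2 values over the 5 libraries. Prkci was closest to Fry (0.131), Numb to the dynein chain gene Dync1li2 (0.140), and Dlg1 to Intu (0.105). Llgl1 was closest to Psen2 (0.0690), Scrib to the dynactin gene Dctn1 (0.128) and Pard6g to the planar polarity gene Vangl2 (0.114). Numbl had the loosest match, Gpsm1 (0.260), a regulator of G proteins in spindle orientation. These likenesses describe 5 libraries only.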

How the data were processed

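Sorted HSCs were lysed in TRIzol, and their RNA went into SMART-Seq v4 low-input libraries. The submitters' processing notes name STAR, featureCounts, DESeq2 and the build mm10, without versions, and the annotation and strand setting are not given in the sources used here. The authors deposited a normalized signal, read counts per gene symbol divided by a size factor of the library, with replicates kept separate. All positive values were whole multiples of the step of 1 read (tolerance 0.001), so 100% of values gave whole reads. Every pair of libraries differed by more than sampling noise. Without molecular identifiers, reads cannot be taken as independent molecules. A deposited table of the authors' own comparison (p-values, adjusted p-values and log2 fold changes) was not used, and 0 other columns were left out.

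Because the values are normalized, limma on log2(value + 1), with the variance trend on (version 3.58.1, R 4.3.3), was the main test in place of the study's DESeq2. It covered 13661 genes (values of 10 or more in 2 or more libraries), took all 5 libraries without covariates, and called genes whose p adjusted by Benjamini-Hochberg was under 0.05. Fold changes understate changes of low genes. DESeq2 (1.42.0) and edgeR's quasi-likelihood test (4.0.16) were run on recovered reads, and DESeq2 with each library left out was added after seeing the data. Other alternatives changed the pseudocount, filter, scaling, variance model, replicate block, length and GC trend and libraries used. Paralog shares were compared with two-sided exact permutation tests. Length and GC content came from the longest protein-coding GENCODE M21 transcript.

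The members and lists were chosen with earlier results of these data known. Genes to name were all members, Syncrip and Cdc42, up to 5 called genes (limma or DESeq2) and the 2 with the highest WT mean from each list, and the gene nearest in pattern to each tested member, of which a part is printed, and genes named after their values were seen are marked. A gene of these lists is not reported here. Markers of HSCs and of 8 other cell groups were summed per library. limma called 0 genes in each marker list. Stroma markers took 0.00161% to 0.0131% of reads, neural and epithelial markers 0.00246% to 0.00682% and lymphoid markers 0.00259% to 0.00346%.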

Additional observations from a re-analysis of the deposited data

How the results depend on the processing

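Of the 7 tested members, Numb (log2 fold change -0.79 to -0.37 over 22 alternatives), Prkci (-1.09 to -0.50), Numbl (0.45 to 2.11) and Pard6g (0.02 to 1.61) kept their direction in all of them. Llgl1 (-0.15), Scrib (-0.16) and Dlg1 (0.18) changed sign with the length and GC trend removed. The count of members called, 0 with limma, was 1 with DESeq2. It was 0 to 3 with each library left out in turn, and 0 to 6 for DESeq2 with each library left out, the highest without KO 2. The count in the pathway lists, 0 with limma, was 28 with DESeq2 (11 higher), 0 to 36 with a library left out, and for DESeq2 18, 14 and 5 without WT 1, WT 2 and WT 3, 44 without KO 2 and 7 without KO 3.

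Over all genes limma called 1. The count was 2 with a pseudocount of 10, 0 without the filter, 8 without the mean-variance trend, 0 with array weights, 2 with edgeR, 2279 with DESeq2 (1128 higher) and 0 after removal of the length and GC trend. With a library left out it was 0 to 3024. DESeq2 gave 801, 1121 and 293 without WT 1, WT 2 and WT 3, 4032 without KO 2 and 407 without KO 3. The extremes of limma came when any WT library was left out (0) and when KO 2 was (3024), where the lone KO 3 is assumed to vary like WT. The Pard6g share difference was -4.64 points without KO 3 and 11.7 points without KO 2.

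Labels give WT 2 and KO 2, and WT 3 and KO 3, shared numbers, and deviations from the group means correlated at -0.06 and -0.18. With 2 KO libraries the KO deviations are mirror images of each other, so this check cannot decide whether samples were paired. The replicate block left 0 members and 0 pathway genes called and 6 genes in all. Causes of these shifts were not tested. With 2 KO libraries that differed from each other, and 485 Numb reads and 236 Prkci reads in the shallower, differences of the size seen here did not pass the limma test, and Pard3 and Prkcz were tested only without the filter, where neither was called.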
